A study of Mus musculus with 4 samples.

Results

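The loss of LAIR1 was examined in tumor-bearing lung, by setting single cells from LAIR1KO tumor-bearing lung against single cells from WT tumor-bearing lung. Members were all cells of these libraries that could be assigned by a hashtag antibody to 1 of 3 animals a group. They number 4687 (2400 LAIR1KO and 2287 WT), of 8468 assigned cells in the 4 libraries of the series. Both groups carried B16/F10, a mouse melanoma line, in the lung. They differ in the genotype label, LAIR1KO against WT, and the labels give no other treatment. The age and strain of the mice, the way the LAIR1KO allele was made and the route by which tumor cells reached the lung are not given in the sources used here. Each group was 1 droplet library of 3 hashtagged animals, so the library and the genotype cannot be told apart, and p-values measure the spread between the animals of each library. The tumor itself was hardly sampled. Cells with melanoma markers numbered 4 in the LAIR1KO library, 0 of them assigned to an animal, and 5 in the WT library, 3 of them assigned.

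LAIR1 is an inhibitory receptor of leukocytes. It binds collagens and other proteins with collagen-like stretches, among them complement C1q, and its cytoplasmic tail carries motifs that recruit phosphatases. The lung is rich in collagen, and its macrophages lie both in the airspaces (alveolar macrophages) and in the tissue between them (interstitial macrophages). Class names below rest on marker genes alone, and are therefore written "-like". A cluster led by Mmp12, with genes of more than 1 class among its leaders, stays without a name.

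The LAIR1KO library held 25877517 gene UMIs (unique molecular identifiers, each a counted RNA molecule) in 4727 barcodes, and the WT library held 27249807 in 4442. Assigned cells numbered 840, 510 and 1050 in the LAIR1KO animals, against 591, 902 and 794 in the WT animals, at median depths of 4356.5 UMIs in LAIR1KO cells and 4971 in WT cells. After filters, 33% of LAIR1KO cells and 28.8% of WT cells carried no hashtag call, and 14.7% and 17.9% carried more than 1. All 6 animals had Xist (1208 to 1374 CPM) and next to no Ddx3y (at most 0.968 CPM), so sex did not differ between the groups. CPM are the counts of a gene's UMIs scaled to a library of 1e+06 UMIs from the same animal and class. The libraries shared 4 barcodes. Markers of alveolar type 2 cells, whose surfactant RNA is abundant in lung, were lower in all LAIR1KO than in all WT animals in 10 of the 12 classes tested. In neutrophil-like cells, for example, the 9 markers together made up 4.4, 4.6 and 5.11 UMIs per 10000 in LAIR1KO animals, against 7.76, 8.32 and 8.53 in WT animals.

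Lair1 itself (ENSMUSG00000055541, mm10, chromosome 7, 4003402 to 4063204, minus strand) was examined first, since it checks the genotype labels. Over all assigned cells, LAIR1KO animals held 3 Lair1 UMIs and WT animals held 730. Interstitial macrophage-like cells had 0, 0 and 0 CPM in LAIR1KO animals, against 202, 221 and 181 CPM in WT animals. All LAIR1KO animals were thus at 0 and the groups did not overlap (log2 difference -10.38 ± 0.42 SE, adjusted p = 3.69e-10, edgeR quasi-likelihood test). Taking a floor of 3 counts over the LAIR1KO group, the level was at least 183-fold lower in LAIR1KO cells. In the Mmp12-led cluster 1 UMI was seen in LAIR1KO cells and 127 in WT cells (ratio 99.9, 95% counting interval 17.6 to 3976, adjusted p = 0.00138). Alveolar macrophage-like cells held 0, 0 and 0 CPM in LAIR1KO animals, against 56.9, 45 and 48.3 CPM in WT animals, at least 16-fold lower in LAIR1KO cells (adjusted p = 0.00613, edgeR). That call missed the threshold without WT replicate 1 (adjusted p = 0.561) or WT replicate 3 (adjusted p = 0.0506).

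Among WT cells of the 12 classes tested, Lair1 stood highest in non-classical monocyte-like cells (227 CPM, 95% counting interval 148 to 333), interstitial macrophage-like cells (200.1, 182 to 219.5) and the Mmp12-led cluster (196, 164 to 233), whose intervals overlap. Next came natural killer cell-like cells (75.6, 27.7 to 164), alveolar macrophage-like cells (50, 35.7 to 68.1) and neutrophil-like cells (34.7, 22.9 to 50.5), whose intervals also overlap. Levels in alveolar type 2-like, endothelial-like, dendritic-like and fibroblast-like cells were at most 5.52 CPM. At least 1 Lair1 UMI was found in 63.6% of WT interstitial macrophage-like cells (median depth 5321.5 UMIs), against 1.28% of WT endothelial-like cells (median 3419 UMIs), a type that should lack the gene. Neutrophil-like cells of LAIR1KO animals held 0 UMIs against 27 in WT animals, at least 11-fold lower, but the gene was too sparse there to enter the test. In non-classical monocyte-like cells 1 UMI in LAIR1KO and 26 in WT animals did not pass it (adjusted p = 0.684, edgeR, 2 animals a group with enough cells). Intervals and floors cover counting error only.

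**Figure D1:**
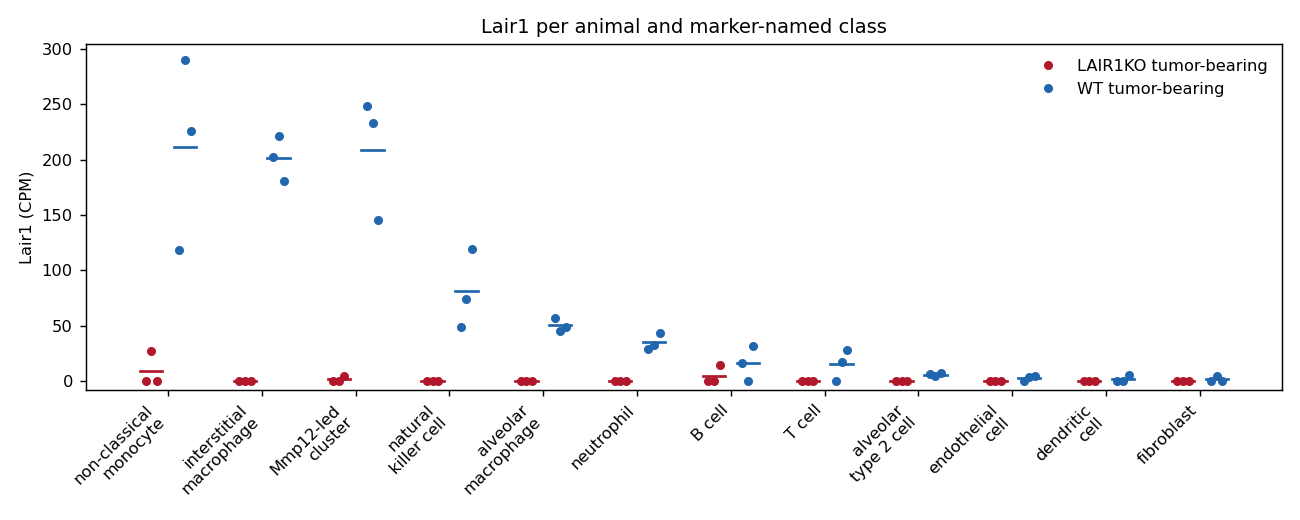
Lair1 in CPM (y axis) per animal and marker-named class (x axis) in LAIR1KO tumor-bearing (red) and WT tumor-bearing lung (blue), with points for animals and bars for the mean of 3 animals. LAIR1KO animals sit at 0 except for 1 animal each in 3 classes (1 UMI each), and WT animals reach 289.9 CPM in non-classical monocyte-like and 221 CPM in interstitial macrophage-like cells.

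The share of each class among assigned cells was compared over animals. Of the classes tested, 0 passed at an adjusted p of 0.05 (edgeR on cell numbers, 1 at an unadjusted p under 0.05), and the smallest p that an exact two-sided permutation test can give here is 0.1. Interstitial macrophage-like cells made up 18.4 ± 4.74% of LAIR1KO cells and 16.5 ± 1.33% of WT cells (SD, n = 3 each), and neutrophil-like cells 25.5 ± 10.3% and 21.3 ± 3.04%. The class below the unadjusted threshold was alveolar type 2-like cells, at 2.86, 2.55 and 6.86% in LAIR1KO animals, against 6.77, 8.76 and 10.8% in WT animals. The groups overlap by 1 LAIR1KO animal (log2 difference -1.07 ± 0.43 SE, adjusted p = 0.622, exact permutation p = 0.2). Hashtag calls were lost unevenly between classes. No hashtag was called in 54.6% of LAIR1KO and 56.7% of WT alveolar type 2-like cells and in 66.9% and 57.6% of fibroblast-like cells. The part of this loss in the shares was not tested.

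**Figure D2:**
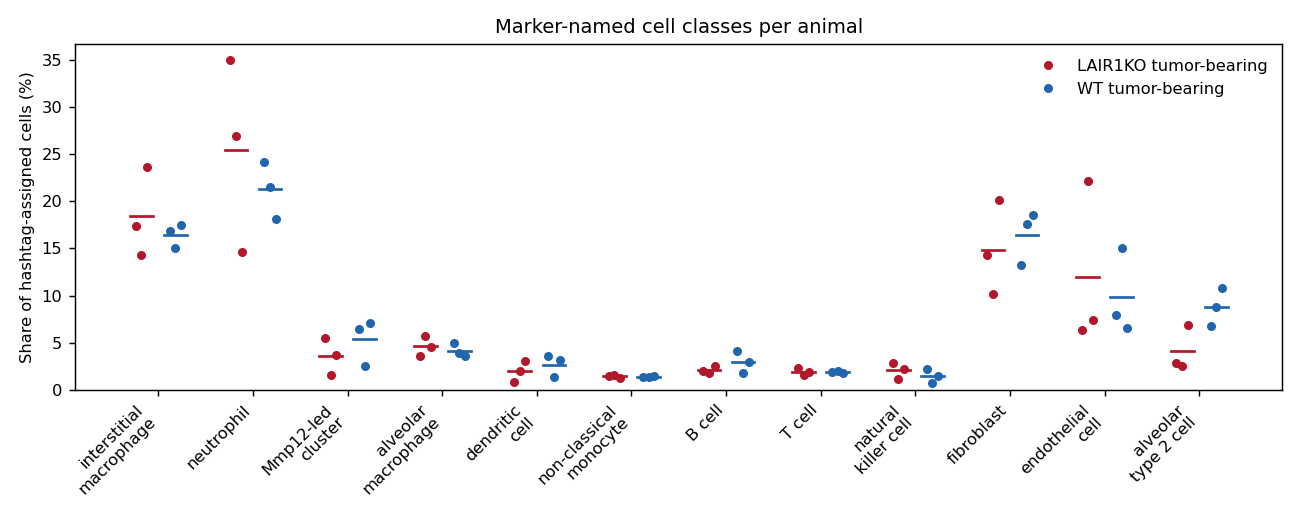
Share of hashtag-assigned cells in percent (y axis) of 12 marker-named classes (x axis) per animal, LAIR1KO tumor-bearing (red) and WT tumor-bearing (blue), with bars at the mean of 3 animals. The groups overlap in every class shown, and alveolar type 2-like cells averaged 4.09% in LAIR1KO and 8.79% in WT animals.

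UMIs were then summed per animal and class, and every gene was tested in each class with enough cells. Interstitial macrophage-like cells had the most genes past the test, 31 of 7372 (0.421%), with 21 higher (0.285%) and 10 lower (0.136%) in LAIR1KO. Neutrophil-like cells had 11 of 2559 (0.43%), with 7 higher (0.274%) and 4 lower (0.156%). Alveolar type 2-like cells had 8 of 5728 (0.14%), with 1 higher (0.0175%) and 7 lower (0.122%). B cell-like cells had 4 of 1145 (0.349%), all higher, and the Mmp12-led cluster 3 of 3727 (0.0805%), with 2 higher (0.0537%) and 1 lower (0.0268%). Single genes, all lower, passed in alveolar macrophage-like cells (1 of 4028, 0.0248%), dendritic-like cells (1 of 2087, 0.0479%) and endothelial-like cells (1 of 4989, 0.02%). Fibroblast-like (8301 genes), T cell-like (962), natural killer cell-like (946) and non-classical monocyte-like cells (866) had 0 (0%) by edgeR. At an unadjusted p under 0.05 these 4 classes had 383, 106, 53 and 56 genes, and DESeq2 called 1, 3, 0 and 0. Cell numbers per class differ widely, from 6 to 294 per animal, and animals with fewer than 10 cells of a class were left out of its fit, so the numbers of calls do not rank the classes by how much they changed.

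Genes named for their small p had to have the groups apart, so that separation is not a further result. In interstitial macrophage-like cells, 4 of the genes that rose encode small calcium-binding proteins of the S100 family. S100a6, which binds calcium and cytoskeletal partners, had 894, 862 and 801 CPM in LAIR1KO animals, against 94.6, 198 and 176 CPM in WT animals. The lowest LAIR1KO animal was far above the highest WT animal (log2 difference 2.43 ± 0.17 SE, adjusted p = 1.09e-07, edgeR). S100a4, a relative linked to cell motility, had 624, 431 and 434 CPM in LAIR1KO animals, against 66.1, 123 and 229 CPM in WT animals (1.79 ± 0.26, adjusted p = 0.00133). Here too the groups were apart, but DESeq2 did not call the gene (adjusted p = 0.148). S100a4 also missed the threshold with all 12 replicates in the fit and with cells gated by markers one by one (adjusted p = 0.209 and 0.126, edgeR).

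S100a8 and S100a9, which together form calprotectin and are abundant in neutrophils, also passed, but on few cells. S100a9 had 410.2, 266 and 219 CPM in LAIR1KO animals, against 71.4, 69.0 and 53.8 CPM in WT animals (2.23 ± 0.22, adjusted p = 1.36e-05, edgeR), and 1 cell held 36.2% of its LAIR1KO UMIs. S100a8 had 293, 122 and 193 CPM in LAIR1KO animals, against 44.6, 35.8 and 40.4 CPM in WT animals (2.39 ± 0.25, adjusted p = 3.63e-05), and 1 cell held 35.4%. With cells marked as doublets left out, the differences were 0.26 for S100a9 (adjusted p = 0.754) and 0.41 for S100a8 (adjusted p = 0.618). The 10 neutrophil markers together made up 12.8, 8.62 and 9.1 UMIs per 10000 in LAIR1KO interstitial macrophage-like cells, against 7.04, 6.77 and 6.86 in WT cells, with 0 of the 10 at 0 in either group. That list holds S100a8, S100a9, G0s2 and Hdc, so its sum is not independent of these genes. The other markers were not summed alone. G0s2 and Hdc (histidine decarboxylase) were past the test too (1.86 and 2.72). Without cells marked as doublets both missed it (adjusted p = 0.71 and 0.165, edgeR). G0s2 also missed it without WT replicate 3 (adjusted p = 0.0635), and Hdc without LAIR1KO replicate 1 or WT replicate 3 (adjusted p = 0.0697 and 0.0826).

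Other genes that rose have different roles. Tppp3, a tubulin-binding protein, had 245, 185 and 195 CPM in LAIR1KO animals, against 58.9, 72.8 and 70.7 CPM in WT animals (1.63 ± 0.16, adjusted p = 1.36e-05, edgeR). Aqp1, a water channel, had 35.5, 20.3 and 34.2 CPM in LAIR1KO animals, against 3.57, 3.83 and 2.24 CPM in WT animals (3.29 ± 0.40, adjusted p = 0.000208). Ecm1, a secreted matrix protein, had 319, 449 and 280 CPM in LAIR1KO animals, against 119.6, 135 and 138 CPM in WT animals (1.38 ± 0.16, adjusted p = 0.00015). In each of the 3 genes every LAIR1KO animal was above every WT animal. Hspb1, a small heat shock protein (1.02 ± 0.16), and Gdf15, a stress-induced cytokine of the TGF-beta family (0.71 ± 0.12), rose as well. Without WT replicate 1, Gdf15 no longer passed (adjusted p = 0.0508). Under another hashtag rule Gdf15 stood at 0.42 and Hspb1 at 0.88, and neither passed (adjusted p = 0.583 and 0.111, edgeR). With all 12 replicates in the fit, Gdf15 and Ecm1 missed the threshold (adjusted p = 0.415 and 0.122, edgeR).

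Of 16 genes listed for LYVE1-high tissue macrophages, all 16 were tested, 2 rose and 0 fell in interstitial macrophage-like cells (0.285% and 0.136% over all genes). Their median log2 difference was 0.21, with 13 above 0, against 0.0 over all genes tested. Fxyd2, a regulator of the sodium pump, had 329.8, 399 and 382 CPM in LAIR1KO animals, against 238, 187 and 174 CPM in WT animals (0.92 ± 0.13, adjusted p = 0.00128, edgeR). Lyve1, a hyaluronan receptor, had 589.9, 704 and 552 CPM in LAIR1KO animals, against 355, 415 and 308 CPM in WT animals (0.78 ± 0.12, adjusted p = 0.00317). Both genes separated the groups, but with all 12 replicates in the fit Lyve1 missed the threshold (adjusted p = 0.0715, edgeR). S100a6, Tppp3, Aqp1 and Fxyd2, like Lair1, passed in all 8 alternative analyses and in all 6 fits with 1 animal left out.

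Genes of antigen presentation by MHC class II made up the main group that fell in interstitial macrophage-like cells. MHC class II molecules show peptides to CD4+ T cells. H2-Aa and H2-Ab1 encode the chains of I-A, H2-Eb1 the beta chain of I-E, and Cd74 the invariant chain that escorts them. Of 9 listed genes 7 were tested, and 0 rose and 4 fell (0.285% and 0.136% over all genes). The median difference was -0.72, with all 7 below 0. H2-Ab1 had 884, 921 and 922 CPM in LAIR1KO animals, against 1779, 1587 and 1437 CPM in WT animals (-0.80 ± 0.11 SE, adjusted p = 0.000658, edgeR). H2-Aa had 1438, 1704 and 1329 CPM in LAIR1KO animals, against 2923, 2459 and 2469 CPM in WT animals (-0.80 ± 0.12, adjusted p = 0.00139). LAIR1KO animals were below WT animals without overlap in both genes, which the naming rule required.

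H2-Eb1 had 1098, 1318 and 987 CPM in LAIR1KO animals, against 2075, 1822 and 1762 CPM in WT animals (-0.72 ± 0.12, adjusted p = 0.00466, edgeR). Cd74 had 4777, 5057 and 4232 CPM in LAIR1KO animals, against 8142, 7239.9 and 6596 CPM in WT animals (-0.63 ± 0.10, adjusted p = 0.00466). Without LAIR1KO replicate 3 these 2 genes missed the threshold (adjusted p = 0.0883 for both). With all 12 replicates in the fit they missed it too (adjusted p = 0.0888 for H2-Eb1 and 0.0715 for Cd74, edgeR). Ciita, the regulator that switches these genes on, was sparse, at 3.55, 11.3 and 6.85 CPM in LAIR1KO animals against 16.1, 15.3 and 12.3 CPM in WT animals, and did not pass (-1.10 ± 0.42, adjusted p = 0.468). All 4 calls were lost with fewer, broader clusters (resolution 0.5, adjusted p between 0.166 and 0.353) and with cells gated by markers one by one (between 0.405 and 0.645). Differences stayed negative in both.

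The promoters of H2-Aa and H2-Eb1 are shown because MHC class II promoters share a Y box, the CCAAT-type element bound by NF-Y, and these genes fell together. The 250 bases before each start, from RefSeq on GRCm38.p6, are given 5′ to 3′ on the gene's strand, H2-Aa at chr17:34287824-34288073 (minus strand) and H2-Eb1 at chr17:34305617-34305866 (plus strand). Capitals mark CTGATTGG, searched on both strands.
H2-Aa: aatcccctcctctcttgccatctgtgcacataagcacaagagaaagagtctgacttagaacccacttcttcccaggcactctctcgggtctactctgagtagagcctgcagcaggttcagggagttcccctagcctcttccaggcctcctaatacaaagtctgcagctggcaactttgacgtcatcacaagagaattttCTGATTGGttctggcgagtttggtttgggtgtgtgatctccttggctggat
H2-Eb1: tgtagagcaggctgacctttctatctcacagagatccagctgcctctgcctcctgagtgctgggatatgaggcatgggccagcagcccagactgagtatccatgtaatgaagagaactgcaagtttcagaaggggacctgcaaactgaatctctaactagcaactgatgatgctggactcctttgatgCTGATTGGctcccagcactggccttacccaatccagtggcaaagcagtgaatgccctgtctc
Each window holds 1 match, beginning 51 bases before the start in H2-Aa and 62 in H2-Eb1. Of 32851 windows of this length in the table, 1258 (3.83%) hold these letters. The match is a description of the sequence, not of binding.

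Further genes that fell in interstitial macrophage-like cells were single members of their lists. Cd209a, a lectin also found on dendritic cells, had 17.7, 15.8 and 21.2 CPM in LAIR1KO animals, against 62.5, 58.8 and 44.9 CPM in WT animals (-1.50 ± 0.23, adjusted p = 0.00219, edgeR). Cx3cr1, the fractalkine receptor (-0.54 ± 0.11), and C3, the central complement protein (-0.80 ± 0.16), also fell. Both missed the threshold in 5 of 6 fits with 1 animal left out, every fit except the one without WT replicate 2 (adjusted p between 0.0585 and 0.162). They also missed it with all 12 replicates in the fit (adjusted p = 0.353 and 0.616, edgeR). The same held at resolution 0.5 (0.0855 and 0.133) and with cells gated by markers one by one (0.172 and 0.125). The 10 dendritic cell markers, of which Cd209a is one, made up 1.57, 1.4 and 1.83 UMIs per 10000 in LAIR1KO cells of this class, against 2.84, 2.38 and 2.45 in WT cells, with Flt3 at 0 in LAIR1KO cells. The 8 classical monocyte markers made up 15.1, 14.3 and 15.7 UMIs per 10000 in LAIR1KO cells, against 11.1, 13.1 and 9.4 in WT cells, with 0 of them at 0. The part of either list in the results was not tested. Cd209a passed in all 6 fits with 1 animal left out, but not with cells gated by markers one by one (-1.12, adjusted p = 0.125, edgeR).

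Receptor signalling close to LAIR1 was examined by lists. Of 18 genes of inhibitory receptor signalling tested in interstitial macrophage-like cells, 1 rose and 0 fell (median 0.01), against 0.285% and 0.136% over all genes. The 1 gene is Cd200r1, the inhibitory receptor for CD200, at 35.5, 38.4 and 31.5 CPM in LAIR1KO animals against 10.7, 16.6 and 14.6 CPM in WT animals (log2 difference 1.25 ± 0.27, adjusted p = 0.0472, edgeR). Its groups were apart, but the call was lost in every fit with 1 animal left out, with adjusted p between 0.0727 and 0.184. Of 17 genes of activating ITAM signalling tested, 0 passed (median 0.04). Of 8 cell cycle genes tested 0 passed, although all 8 were below 0 (median -0.71).

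**Figure D3:**
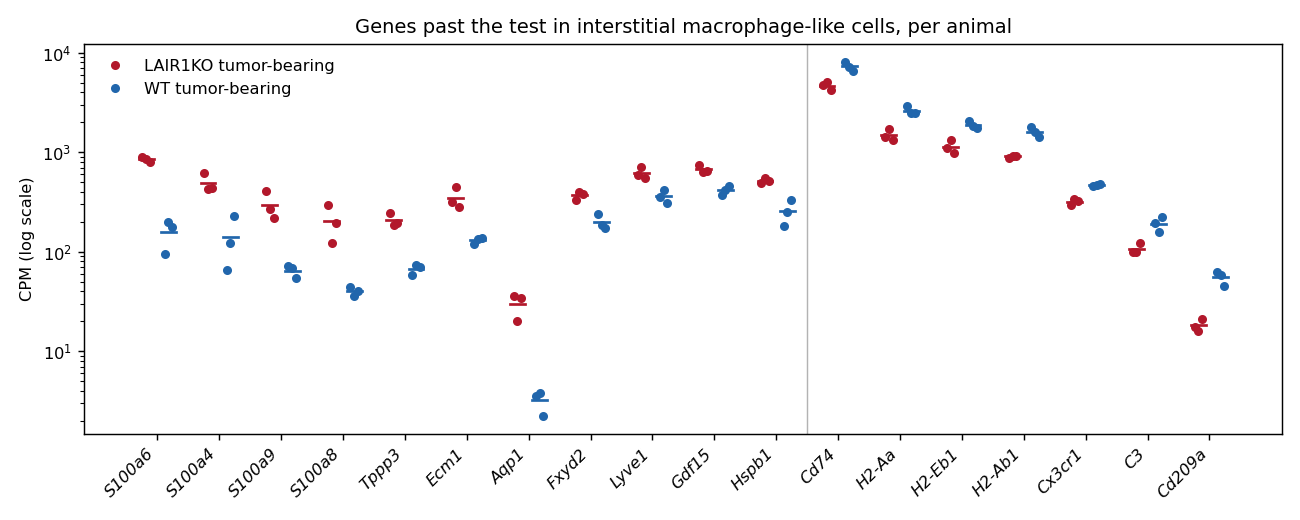
CPM on a log axis (y axis) of 18 genes past the test in interstitial macrophage-like cells (x axis), per animal, LAIR1KO tumor-bearing (red) and WT tumor-bearing (blue), with bars at the mean of 3 animals. Genes left of the grey line were higher and genes right of it lower in LAIR1KO. The groups are apart in each gene shown, which the naming rule required of part of them.

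The interstitial macrophage-like class joins 3 clusters, given first with the animals of a group pooled. Cluster 7, led by Retnla, Cd209f, Folr2 and Fxyd2, held 204 LAIR1KO and 118 WT cells. Cluster 5, led by Cx3cr1 and Cxcl13, held 136 and 168, and cluster 11, led by the chemokine genes Ccl4 and Ccl3, held 127 and 88. Per animal, cluster 7 held 73 of 146, 26 of 73 and 105 of 248 LAIR1KO cells of the class. In WT animals it held 37 of 100, 50 of 135 and 31 of 139. These shares overlap between the groups, and a difference in them was not tested. Tested alone, cluster 7 had 18 genes past the test of 3983 (0.452%), against 2 of 4101 (0.0488%) in cluster 5 and 2 of 2713 (0.0737%) in cluster 11. This split was chosen after the values of the whole class were seen.

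Within cluster 7, S100a6 had 1330.1, 1844 and 1365 CPM in LAIR1KO animals, against 90.2, 323 and 90.2 CPM in WT animals (3.05 ± 0.32 SE, adjusted p = 0.000142, edgeR). In cluster 5 it had 410.3, 266 and 469.8 CPM in LAIR1KO animals, against 72.7, 134 and 147 CPM in WT animals (1.67 ± 0.25, adjusted p = 0.00291). In cluster 11 it had 321, 172 and 102 CPM in LAIR1KO animals, against 141, 73.9 and 310.2 CPM in WT animals (0.06 ± 0.44, adjusted p = 0.996). The groups were apart in clusters 7 and 5 and overlapped in cluster 11. The MHC class II genes fell in cluster 7. H2-Ab1 had 856, 404 and 1038 CPM there in LAIR1KO animals, against 2293, 1599.7 and 1759 CPM in WT animals (-1.26 ± 0.24, adjusted p = 0.0294). In clusters 5 and 11 it did not pass (-0.44 ± 0.18 and -0.86 ± 0.31, adjusted p = 0.826 and 0.554, edgeR). Whether the difference itself differs between the clusters was not tested.

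Cd209a fell in cluster 7 as well, to 30, 34.2 and 45 CPM in LAIR1KO animals, against 146, 147 and 180.4 CPM in WT animals (-2.06 ± 0.24, adjusted p = 0.000363, edgeR). Fxyd2, a leading gene of cluster 7 itself, rose there (1.06 ± 0.17, adjusted p = 0.00622) and stood at a difference of 0.05 ± 0.24 in cluster 5. Tppp3, Ecm1 and Aqp1 rose in cluster 7 too (1.89, 1.75 and 3.16). Lyve1 was above 0 in all 3 clusters but passed in none of them (0.54 ± 0.16 in cluster 7, 0.58 ± 0.19 in cluster 5 and 0.42 ± 0.36 in cluster 11, edgeR). Gdf15 rose in cluster 11, to 886, 1036 and 1021 CPM in LAIR1KO animals, against 596, 463 and 411 CPM in WT animals (1.02 ± 0.18, adjusted p = 0.0421). It did not pass in cluster 5 (1.12 ± 0.22, adjusted p = 0.0852) or in cluster 7 (-0.21 ± 0.36, adjusted p = 0.906).

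Outside interstitial macrophages, MHC class II genes did not pass in any whole class. The tested members were all below 0 in alveolar macrophage-like (6 genes, median -0.40), endothelial-like (5, -0.66), alveolar type 2-like (6, -0.38), dendritic-like (8, -0.12) and fibroblast-like cells (4, -0.19). In the Mmp12-led cluster, where the levels are among the highest, 5 of 7 were above 0 (median 0.07). B cell-like and neutrophil-like cells had members of both signs. H2-Aa stood at -0.53 ± 0.19 and H2-Oa at 0.55 ± 0.36 in B cell-like cells (adjusted p = 0.634 and 0.861, edgeR). H2-Ab1 stood at -0.67 ± 0.35 and Cd74 at 0.10 ± 0.22 in neutrophil-like cells (adjusted p = 0.432 and 0.886). In alveolar type 2-like cells H2-Eb1 had 362, 493 and 371 CPM in LAIR1KO animals, against 755, 569.8 and 492 CPM in WT animals (-0.56 ± 0.17, adjusted p = 0.702, edgeR). The groups there overlapped narrowly, since the highest LAIR1KO animal lies just above the lowest WT animal. In endothelial-like cells Cd74 had 1117, 162 and 111 CPM in LAIR1KO animals, against 563, 675 and 670.3 CPM in WT animals (-0.66 ± 0.48, adjusted p = 1). LAIR1KO replicate 1 was the highest of all 6, and the other 2 LAIR1KO animals the lowest. The same animal stood apart in alveolar macrophage-like cells, where H2-Aa had 186, 23.9 and 29.3 CPM in LAIR1KO animals, against 129, 107 and 205 CPM in WT animals (-0.95 ± 0.49, adjusted p = 0.813).

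Split by cluster, endothelial-like cluster 10, led by the capillary genes Apln, Car4 and Kdr, had 2 genes past the test of 3206 (0.0624%). Both belong to MHC class II. Cd74 had 40.5 and 67.3 CPM in LAIR1KO replicates 2 and 3, against 391, 363 and 392 CPM in WT animals (-2.84 ± 0.34, adjusted p = 1.49e-06, edgeR), and H2-Eb1 had 15.2 and 29.9 CPM, against 163, 125 and 166 CPM (-2.68 ± 0.50, adjusted p = 0.00657). LAIR1KO replicate 1 had fewer than 10 cells in this cluster and was left out of the fit. That is the animal with the highest Cd74 in the whole class. The 10 interstitial macrophage markers together made up 3.87, 3.32 and 4.4 UMIs per 10000 in LAIR1KO endothelial-like cells, against 12.7, 5.12 and 11.5 in WT ones, with 0 of the 10 at 0 in either group, and their part was not tested.

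**Figure D4:**
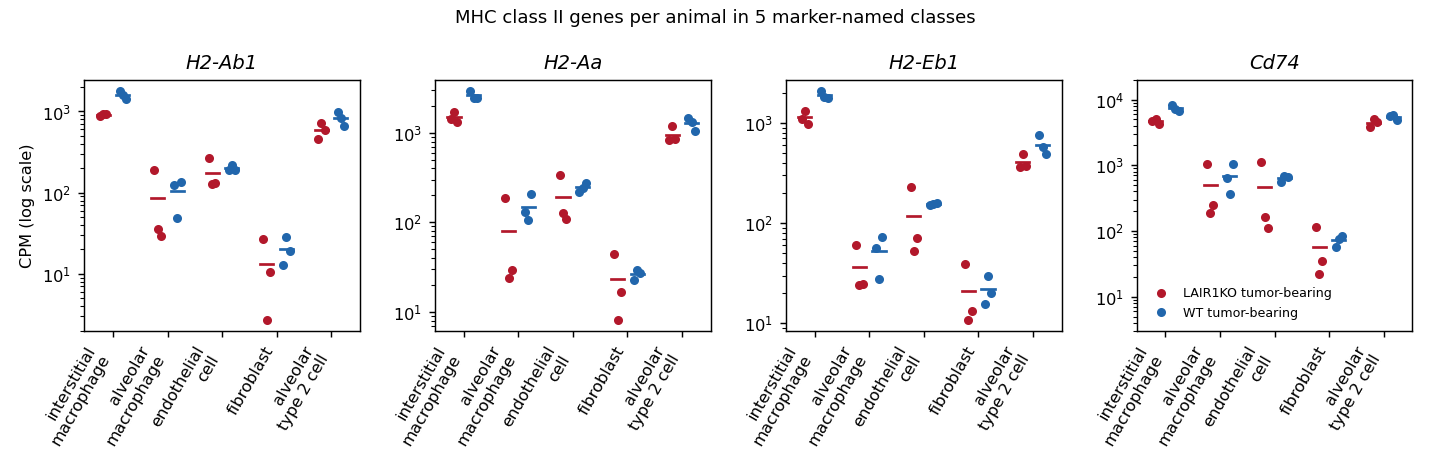
H2-Ab1, H2-Aa, H2-Eb1 and Cd74 in CPM on a log axis (y axis) in 5 marker-named classes (x axis), per animal, LAIR1KO tumor-bearing (red) and WT tumor-bearing (blue), with bars at the mean of 3 animals. The groups are apart in interstitial macrophage-like cells for all 4 genes, while LAIR1KO animals spread widely in alveolar macrophage-like, endothelial-like and fibroblast-like cells.

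In neutrophil-like cells the 2 genes with the smallest p lie beside Lair1. Pira2, an activating paired immunoglobulin-like receptor (chromosome 7, 3836812 to 3845051, minus strand, mm10), had 711, 698 and 569.7 CPM in LAIR1KO animals, against 209, 166 and 212 CPM in WT animals (1.79 ± 0.17 SE, adjusted p = 1.28e-06, edgeR). Gm14548, a protein-coding gene model between Pira2 and Lair1 (3884242 to 3898120, minus strand), had 13.8, 0 and 4.19 CPM in LAIR1KO animals, against 209, 234 and 95.2 CPM in WT animals (-4.35 ± 0.47, adjusted p = 8.64e-06). The groups were apart in both genes, and both passed in all 8 alternatives and all 6 fits with 1 animal left out. Pirb, the inhibitory partner of the family, stood at 452 ± 64.9 CPM in LAIR1KO and 504 ± 36.7 CPM in WT animals (SD, n = 3 each) and did not pass (-0.12 ± 0.15, adjusted p = 0.789). Paired receptor genes are close copies, and how reads were split among them is not given in the sources used here, so the levels of single members are uncertain. The strain of the DNA that flanks the LAIR1KO allele, which lies beside these genes, is not given there either.

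Pira2 also stood at 17.7, 18.1 and 24.6 CPM in LAIR1KO interstitial macrophage-like cells, against 5.36, 3.83 and 11.2 CPM in WT ones, and did not pass (1.55 ± 0.39, adjusted p = 0.129, edgeR). In alveolar macrophage-like cells it averaged 72.6 ± 25.7 CPM in LAIR1KO and 71.2 ± 12.6 CPM in WT animals (SD, n = 3 each). Among genes within 10 Mb of Lair1, 18 were tested in neutrophil-like cells, of which Pira2 and Gm14548 passed, against 11 of 2559 (0.43%) over all genes. Of 37 tested in interstitial macrophage-like and 41 in fibroblast-like cells 0 passed (edgeR, with DESeq2 run over all genes only). Over all genes 0.421% and 0% passed in these classes.

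Further genes passed in neutrophil-like cells. Fos, an immediate early transcription factor, had 1325, 1303 and 1646 CPM in LAIR1KO animals, against 2215, 2602 and 2199 CPM in WT animals (-0.70 ± 0.12, adjusted p = 0.00744, edgeR). The groups did not overlap. Of 18 immediate early genes tested 1 fell and 0 rose, with 16 below 0 (median -0.32, against -0.01 over all genes). Over all genes of the class 0.156% fell and 0.274% rose. Id1, an inhibitor of transcription factors of the helix-loop-helix type, had 188, 169.6 and 155 CPM in LAIR1KO animals, against 91.8, 84.5 and 64.9 CPM in WT animals (1.13 ± 0.22, adjusted p = 0.0219). Cxcl3, a neutrophil-attracting chemokine, had 768, 1081 and 532 CPM in LAIR1KO animals, against 192, 377 and 502 CPM in WT animals (1.17 ± 0.24, adjusted p = 0.0267), and neither gene was called by DESeq2 (adjusted p = 0.119 for Id1 and 0.55 for Cxcl3).

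Each of these 3 calls was lost in some fits with 1 animal left out. Fos missed the threshold without LAIR1KO replicate 1, LAIR1KO replicate 2 or WT replicate 2 (adjusted p = 0.0528, 0.123 and 0.133). Id1 missed it without LAIR1KO replicate 1 or 2 or WT replicate 2 or 3 (0.0825 to 0.159), and Cxcl3 without LAIR1KO replicate 1 or 2 or WT replicate 1 or 2 (0.0919 to 0.224). Ngp, a granule protein of immature neutrophils, passed at -3.88, but 1 WT cell held 74.5% of its WT UMIs, and the groups overlapped. Without WT replicate 2 it stood at -2.02 (adjusted p = 0.532), and without any 1 of the LAIR1KO animals it missed the threshold as well (0.123 to 0.215). Cish (1.81 ± 0.40), a feedback inhibitor of cytokine signalling, and Tspan31 (1.36 ± 0.30) rose, and neither passed in any of the 6 fits with 1 animal left out (adjusted p between 0.0632 and 0.321).

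Epithelial transcripts also differed in neutrophil-like cells. Scgb1a1, the secretory protein of airway club cells, had 565, 504 and 569.7 CPM in LAIR1KO animals, against 363, 283 and 316 CPM in WT animals (0.80 ± 0.16, adjusted p = 0.0197, edgeR). Sftpc, a surfactant protein of alveolar type 2 cells, had 280.5, 276 and 289 CPM in LAIR1KO animals, against 479.8, 529.6 and 519 CPM in WT animals (-0.83 ± 0.15, adjusted p = 0.00744). The 8 airway markers together made up 5.89, 5.33 and 5.99 UMIs per 10000 in LAIR1KO neutrophil-like cells, against 3.8, 2.99 and 3.42 in WT ones, with Ccdc153 at 0 in LAIR1KO and Foxj1, Ccdc153 and Bpifa1 at 0 in WT cells. Scgb1a1 is 1 of the 8 and makes up most of the sum in both groups, so the sum mainly restates that gene. Scgb1a1 missed the threshold in 5 of 6 fits with 1 animal left out, all but the one without WT replicate 1 (0.053 to 0.218), and Sftpc without LAIR1KO replicate 1 or 2 or WT replicate 2 (0.0528 to 0.129).

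Sftpc fell in LAIR1KO interstitial macrophage-like cells too (-0.64 ± 0.14, adjusted p = 0.0466, edgeR), although it passed there in 1 of 6 fits with 1 animal left out, the one without WT replicate 2 (0.128 to 0.182 in the others). In alveolar type 2-like cells, which make the protein, it had 134948, 140285 and 137127 CPM in LAIR1KO animals, against 133421, 127622 and 130722 CPM in WT animals (0.10 ± 0.04, adjusted p = 0.822). Those cells also made up 6.41% of LAIR1KO and 14.5% of WT cells that were no hashtag doublets. Scgb1a1 in interstitial macrophage-like cells had 318, 950 and 366 CPM in LAIR1KO animals, against 200, 217 and 17672 CPM in WT animals. WT replicate 3 stood alone there, and the gene did not pass (-3.53 ± 1.07, adjusted p = 0.251). Whether the share of alveolar type 2-like cells bears on the Sftpc values was not tested.

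The other myeloid classes had few calls besides Lair1. In the Mmp12-led cluster, Thbs1 (thrombospondin, which can activate latent TGF-beta) had 742 and 1135 CPM in LAIR1KO replicates 1 and 3, against 108, 129.6 and 274 CPM in WT animals (2.43 ± 0.33, adjusted p = 0.00832, edgeR). Il6, an inflammatory cytokine, had 256 and 192 CPM, against 54.1, 51.9 and 38.7 CPM (2.30 ± 0.29, adjusted p = 0.00585). A single cell held 51.8% of the LAIR1KO UMIs of Thbs1, and 1 cell held 35.7% of those of Il6. Replicates of the groups were apart in both genes, with LAIR1KO replicate 2 left out for having 8 cells. With cells marked as doublets removed, neither passed (adjusted p = 0.683 and 0.675). Without WT replicate 1 or 2 neither passed either (adjusted p = 0.22 and 0.192 for Thbs1, 0.0943 and 0.082 for Il6), and Il6 was lost without WT replicate 3 as well (0.0626). The 10 neutrophil markers made up 3.04 and 14 UMIs per 10000 in LAIR1KO cells of the cluster, against 1.76, 1.56 and 2.23 in WT cells, with Cxcr2 at 0 in both groups, and their part was not tested.

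In alveolar macrophage-like cells Insig1, which restrains cholesterol synthesis, had 178, 171 and 174 CPM in LAIR1KO animals, against 72.1, 100.5 and 92.7 CPM in WT animals. It did not pass (1.01 ± 0.19, adjusted p = 0.149, edgeR). Ccl2, the monocyte-attracting chemokine, had 103, 55.8 and 135 CPM in LAIR1KO animals, against 228, 326 and 193 CPM in WT animals, and did not pass either (-1.25 ± 0.26, adjusted p = 0.149). In dendritic-like cells Yae1d1, at 26.6 and 12.8 CPM in LAIR1KO replicates 2 and 3 against 198, 396 and 285 CPM in WT animals, was the only gene called (-4.05 ± 0.53, adjusted p = 0.0291), and 1 cell held 42.6% of its WT UMIs. That call was lost without LAIR1KO replicate 3 and without any 1 of the WT animals (adjusted p between 0.0535 and 0.293). In non-classical monocyte-like cells 0 genes passed. Among those named besides Lair1, Wfdc17 did not pass (2.12, adjusted p = 0.731, edgeR), at 694 and 370.2 CPM in LAIR1KO animals 1 and 3 against 156 and 90.3 CPM in WT animals 2 and 3.

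Lymphoid classes were small, with 6 to 27 cells per animal, and LAIR1KO replicate 2 was left out of all 3 for having fewer than 10, as was WT replicate 2 of natural killer cell-like cells. In B cell-like cells S100a8 (5.53 ± 0.73), Il1r2, a decoy receptor for interleukin 1 (4.58 ± 0.70), Thbs1 (3.14 ± 0.42) and Gadd45b, a stress gene (3.06 ± 0.45), rose, with adjusted p between 0.0242 and 0.0323 (edgeR). S100a8 had 3389.8 and 681 CPM in LAIR1KO animals, against 31.9, 52.1 and 47.3 CPM in WT animals. A single cell held 38.6% of its LAIR1KO UMIs. The 10 neutrophil markers made up 93.9 and 18.1 UMIs per 10000 in LAIR1KO B cell-like cells, against 1.91, 2.87 and 3.0 in WT ones, with Cxcr2 and Trem1 at 0 in WT cells. S100a8 and Il1r2 are among these markers, so the sum is not independent of their calls. Without WT replicate 1 none of the 4 passed (adjusted p = 0.284 to 0.297), nor did they without WT replicate 2 (0.0611). Under another rule for hashtags S100a8 turned to -0.91 and 0 genes passed. Il1r2 and Gadd45b were also lost without LAIR1KO replicate 1 (0.617 and 0.0962), and Il1r2 and Thbs1 without LAIR1KO replicate 3 (0.0637).

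T cell-like cells had no call by edgeR. Genes that did not pass were named only where the groups were apart, so their separation is not a result. Under another hashtag rule, Top2a and Tuba1b stood at 1.79 and 1.68 (adjusted p = 0.905 for both, edgeR). With no filter on low counts both passed. Top2a, a topoisomerase of dividing cells, had 475 and 412 CPM in LAIR1KO animals, against 0, 87.6 and 0 CPM in WT animals (adjusted p = 0.0589), and Tuba1b had 733 and 896 CPM, against 104, 210.3 and 28.3 CPM (2.65 ± 0.47, adjusted p = 0.0589). Of 7 cell cycle genes tested all were above 0 (median 1.78, against -0.03 over all genes), and 0 passed. Natural killer cell-like cells gave no call. Their effector genes Gzma (7853 and 7233 CPM in LAIR1KO, 6665 and 8053 CPM in WT animals) and Ccl5 (11039.8 and 12429.6 CPM, against 14286 and 11681 CPM) overlapped between the groups.

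Among stromal classes, endothelial-like cells had 1 call. Igfbp5, which binds insulin-like growth factors, had 30.7, 3.87 and 14.2 CPM in LAIR1KO animals, against 151, 84.8 and 200.1 CPM in WT animals (-3.41 ± 0.47 SE, adjusted p = 0.00185, edgeR). All LAIR1KO animals were below all WT animals, and the call held in all 6 fits with 1 animal left out. Its UMIs lay in 7 of 244 LAIR1KO and 7 of 235 WT cells, and 1 cell held 26.4% of the WT UMIs. The call was lost at cluster resolution 0.5 (-1.95, adjusted p = 0.743) and with all 12 replicates in the fit (-3.44, adjusted p = 0.347). Fabp4, a fatty acid-binding protein, had 227, 88.9 and 96.5 CPM in LAIR1KO animals, against 5.81, 34.3 and 0 CPM in WT animals, and did not pass (2.53 ± 0.48, adjusted p = 0.0825). Of 17 capillary endothelial genes tested 0 passed (median 0.07).

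Fibroblast-like cells, the chief source of the collagens that LAIR1 binds, had 0 calls by edgeR and 1 by DESeq2 among 8301 genes. Of 16 LAIR1 ligand genes tested in them 0 passed (median 0.07), and of 17 collagen and matrix genes 0 passed (median 0.11, 13 above 0). Col3a1 had 2699, 2130.4 and 3714 CPM in LAIR1KO animals, against 2887, 3055 and 2434 CPM in WT animals (0.09 ± 0.14, adjusted p = 0.995), with full overlap. Saa3, an acute phase protein, had 3.7, 2.73 and 12.8 CPM in LAIR1KO animals, against 40.3, 275 and 118 CPM in WT animals. It did not pass (-4.06 ± 0.61, adjusted p = 0.0663), and its groups are apart because the naming rule required it.

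In alveolar type 2-like cells, the epithelial class tested, genes typical of macrophages fell. Ccl4, a chemokine, had 38.1, 57.5 and 13.3 CPM in LAIR1KO animals, against 469, 216 and 412 CPM in WT animals (-3.76 ± 0.38, adjusted p = 2.05e-05, edgeR), and 1 cell held 40.1% of its WT UMIs. C1qa, a chain of complement C1q, had 14.3, 8.22 and 6.63 CPM in LAIR1KO animals, against 125, 49.8 and 133 CPM in WT animals (-3.48 ± 0.51, adjusted p = 0.00337). Ccl3 (-2.79 ± 0.42), Ccl2 (-2.52 ± 0.40), Cd83 (-1.76 ± 0.28) and C1qc (-3.23 ± 0.57) fell as well. Among the lists, chemokines had 3 of 8 lower (median -1.93), complement 2 of 5 (median -0.93) and LAIR1 ligands 2 of 7 (median -0.20), with 0 higher in each. The 2 genes are C1qa and C1qc in both of the last lists, so these lists are not separate results. Over all genes of the class, 7 of 5728 (0.122%) were lower.

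The 10 interstitial macrophage markers, which include C1qa and C1qc, together made up 4.53, 5.18 and 4.84 UMIs per 10000 in LAIR1KO alveolar type 2-like cells, against 12.3, 7.12 and 14.6 in WT ones, with 0 of the 10 at 0 in either group. With cells marked as doublets left out, the Ccl4 difference was 0.34 (adjusted p = 0.98) and that of Ccl2 was -0.03 (adjusted p = 1). C1qa, C1qc and Ccl3 were then too sparse to be tested. Without LAIR1KO replicate 3 the calls of C1qa, Ccl3 and Ccl2 were lost (adjusted p = 0.5 for each), as was that of Cd83 (0.472), while Ccl4 passed in all 6 such fits. Cd83 was also lost without LAIR1KO replicate 1 (0.0511), and C1qc without any 1 of the LAIR1KO animals or WT replicate 3 (0.0588 to 0.393). Of genes with an epithelial role, Hopx, a homeodomain protein also used by type 1 cells, had 52.4, 41.1 and 71.3 CPM in LAIR1KO animals, against 122, 165 and 129 CPM in WT animals (-1.16 ± 0.22, adjusted p = 0.0311). That call was lost in 5 of 6 fits with 1 animal left out, all but the one without WT replicate 1 (adjusted p between 0.067 and 0.258). DESeq2 did not call Hopx (adjusted p = 0.219), and with cells gated by markers one by one its difference was 0.02. Krtap17-1 rose (1.85 ± 0.32, adjusted p = 0.0128), and without LAIR1KO replicate 1 or 3 it missed the threshold (adjusted p = 0.0998 and 0.5).

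Whether the genotype difference itself differs between lineages was tested in a joint fit of the 6 classes with at least 10 cells in every animal, with the animal as a term (9218 genes). Myeloid (alveolar and interstitial macrophage-like, neutrophil-like) against stromal classes (endothelial-like, fibroblast-like) gave 0 genes (0%) by edgeR, 513 at an unadjusted p under 0.05 and 0 by DESeq2. Myeloid against epithelial (alveolar type 2-like) gave 25 (0.271%), and stromal against epithelial 6 (0.0651%), all with the lower difference in alveolar type 2-like cells. DESeq2 gave 24 and 0. With 5 cells as the minimum, which brings in all 12 classes, the numbers were 7 of 8705 (0.0804%) and 3 (0.0345%), and 0 for every pair with lymphoid classes. The 4 genes with the smallest p between myeloid and epithelial classes were Ccl4 (4.09 ± 0.54), C1qc (4.17 ± 0.68), Fcer1g, the signalling chain of Fc receptors (4.03 ± 0.66), and Hopx (2.06 ± 0.35), with adjusted p between 5.85e-06 and 0.000818. Doublet removal brought the first 3 to 0.02, 0.87 and 1.36, with adjusted p of at least 0.935. With cells gated by markers one by one, Fcer1g stood at 1.32 and Hopx at 0.73 (adjusted p = 0.56 and 0.894, edgeR). Fcer1g also missed the threshold without LAIR1KO replicate 3 (adjusted p = 0.0757).

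Each class was also set against the mean of the other 5 in that fit, a contrast chosen after the class results were seen. Interstitial macrophage-like cells had 2 genes (0.0217%). S100a6 rose by 2.56 ± 0.29 more than in the other classes (adjusted p = 6.09e-08, edgeR), and Mamdc2 by 2.70 ± 0.54 (adjusted p = 0.0422). S100a6 averaged 2357 ± 204 CPM in LAIR1KO and 2365 ± 307 CPM in WT fibroblast-like cells (SD, n = 3 each), and 7777 ± 951 and 8385 ± 331 CPM in neutrophil-like cells, so the classes with the highest levels did not pass. Fibroblast-like cells had 1 gene (0.0108%), the neutrophil-attracting chemokine Cxcl2 (1.64 ± 0.26, adjusted p = 0.00102). Within the class alone it had 224, 628 and 316 CPM in LAIR1KO animals, against 82.0, 158 and 208 CPM in WT animals, apart in all animals but not past the test (1.34 ± 0.33, adjusted p = 0.757). Alveolar type 2-like cells had 21 genes (0.228%), all lower. Neutrophil-like, alveolar macrophage-like and endothelial-like cells had 0, with 564, 549 and 411 at an unadjusted p under 0.05, and DESeq2 was not run on this contrast.

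**Figure D5:**
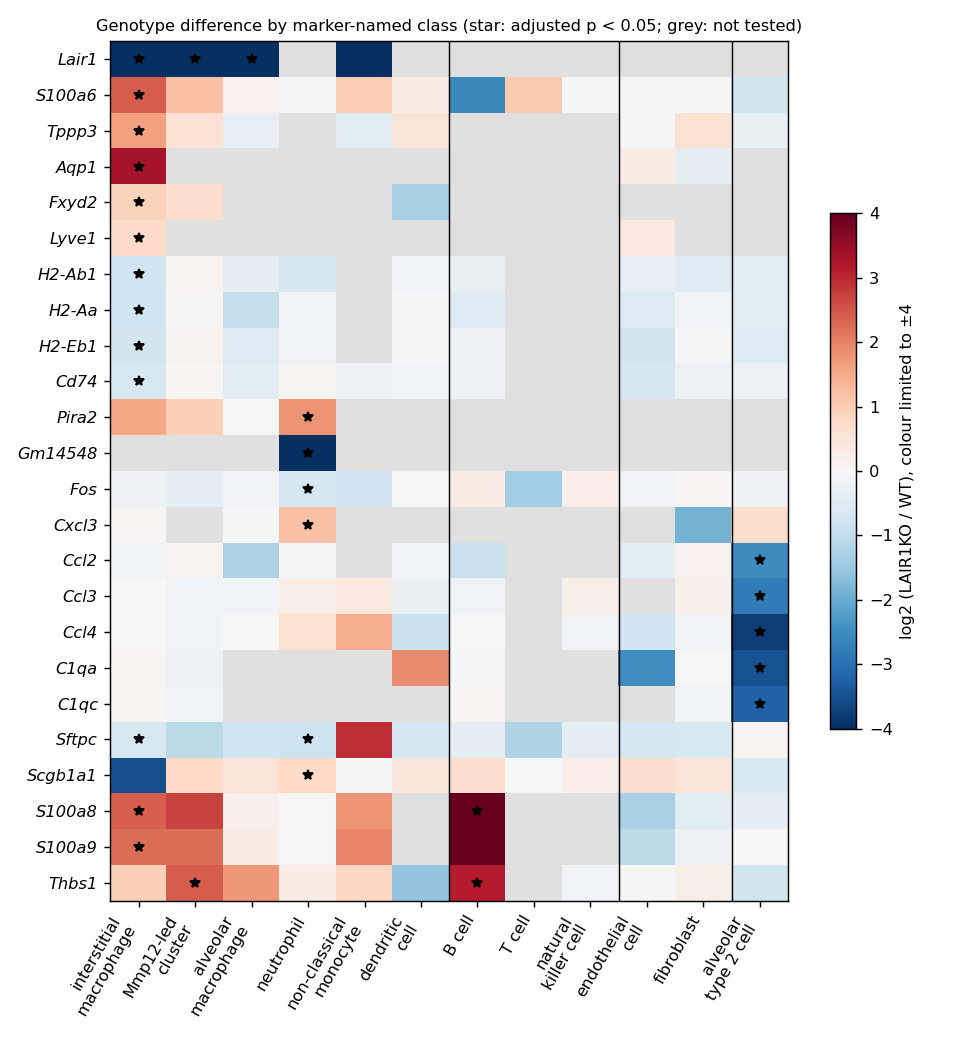
Log2 difference of LAIR1KO over WT tumor-bearing lung (colour, limited to 4 either way) for 24 genes (rows) in 12 marker-named classes (columns, with lines between myeloid, lymphoid, stromal and epithelial classes), where a star marks an adjusted p under 0.05 and grey a gene not tested. Lair1 is starred in 3 classes, Thbs1, Sftpc and S100a8 in 2 each, and every other gene shown in 1 class.

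Over the same 6 classes, weighted equally per animal, 1 gene of 9126 (0.011%) passed, Lair1 (-1.71 ± 0.09 on the log2(CPM + 10) scale, which understates the change of low genes, adjusted p = 3.47e-07, limma). Next in order, and not past the threshold, were Ccl12, a monocyte-attracting chemokine (-0.59 ± 0.10, adjusted p = 0.112), and Sftpc (-0.56 ± 0.10, adjusted p = 0.124). In all 3 genes the LAIR1KO animals were below the WT animals. Among the 10 genes with the smallest p were also Pira2 (0.59 ± 0.11, adjusted p = 0.139) and Gm14548 (-0.60 ± 0.11, adjusted p = 0.164).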

How the data were processed

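Single cells from LAIR1KO and WT tumor-bearing lung were captured with 10x 3' chemistry, each library holding 3 animals marked by hashtag antibodies. The deposited matrices hold UMI counts per gene and barcode, for which the submitters' processing notes name Cell Ranger (4.0.0), STAR, the mm10 build, R 4.0.0 and Seurat 3.2.0. The reference annotation and the splitting of reads among copies are not given in the sources used here.

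Barcodes with at least 300 genes and at most 10% mitochondrial UMIs were kept in all 4 libraries. Animals were called with HTODemux (Seurat 5.3.0, quantile 0.99), and cells with no hashtag or several were left out. Scrublet marked 43 LAIR1KO and 53 WT cells among those kept as doublets, which were removed in an alternative only. Cells were clustered with scanpy 1.11.5 and leidenalg 0.10.2 (Python 3.11.15, 2000 variable genes, 30 components, 15 neighbours, resolution 1.0), and 5 mixed clusters were split again. Clusters took a class name from marker lists, so names are rebuilt and may differ from the study's.

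For each animal and class holding 10 cells or more, UMIs were added up. The sums were fitted in R 4.3.3 with edgeR 4.0.16, using TMM scaling, the filterByExpr filter, its quasi-likelihood test and Benjamini-Hochberg adjustment over all genes of a fit. A joint edgeR fit held animal, class and class by genotype. Means over classes were tested with limma 3.58.1 on log2(CPM + 10), and DESeq2 1.42.0 was an alternative. Scripts were tested on simulated data. Replicates are animals of 1 library a group, with 2378671 to 6202834 UMIs each. Values after ± are standard errors unless SD is written, and all p in the text without another name are from these edgeR fits.

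The members and the 33 gene lists were chosen with earlier results of these data known. Genes named are Lair1, and in each class up to 4 that rose and 4 that fell with the smallest p. These risen and fallen genes had to be at an adjusted p under 0.05, at least 1.5-fold changed, at 20 CPM or more and apart between groups. Where fewer than 2 genes besides Lair1 met this, up to 2 of each direction that did not pass were named. List members, genes within 10 Mb of Lair1 and 4 genes a lineage pair were added, while ribosomal and mitochondrial genes, genes of antigen receptors, sex-linked genes and unnamed gene models were passed over. S100a4, Aqp1, Ecm1, G0s2, Hdc, Mamdc2, Cish, Tspan31 and Ccl12, and the genes given for single clusters, were chosen after their values were seen. Alternatives were another hashtag rule (at least 10 counts and 3 times the next hashtag), doublets removed, resolution 0.5, a marker gate per cell, no filter on low counts, all 12 replicates of the series in the fit, a replicate block, DESeq2, and leaving out each replicate.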

Additional observations from a re-analysis of the deposited data

Results flagged for a closer look

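These results are listed because the genotype difference itself differed between lineages or classes in the joint edgeR fit of 6 classes. Between myeloid classes and alveolar type 2-like cells the log2 differences of Ccl4 (4.09), C1qc (4.17), Fcer1g (4.03) and Hopx (2.06) were higher in myeloid classes. Between stromal classes and alveolar type 2-like cells those of Fcer1g (4.19), Hopx (1.76), Rgl1 (3.77) and Ccl4 (3.29) were higher in stromal classes. Behind them, Fcer1g had 4.76, 8.22 and 1.66 CPM in LAIR1KO alveolar type 2-like cells, against 84.5, 19.4 and 60.5 CPM in WT ones. Rgl1 had 4.76, 0 and 1.66 CPM in LAIR1KO ones, against 17.5, 13.8 and 56.4 CPM in WT ones. Ccl4 itself had 7765, 8044 and 6948 CPM in LAIR1KO interstitial macrophage-like cells, against 9527, 6389 and 7018 CPM in WT ones. C1qc had 2908, 3100.3 and 3118 CPM there in LAIR1KO animals, against 2982, 2929 and 2877 CPM in WT animals, so in neither gene were the groups apart in the class of this fit with its highest level.

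The stromal results rest in part on single animals and on the processing. Without LAIR1KO replicate 3 none of the 4 passed (adjusted p from 0.0639 to 0.443, edgeR), Rgl1 was also lost without LAIR1KO replicate 1 or WT replicate 3 (0.0527 and 0.468), and Fcer1g without LAIR1KO replicate 1 (0.053). With doublets removed, the differences were 2.31 for Fcer1g, 1.1 for Rgl1 and -0.58 for Ccl4 (adjusted p = 1 for each), while Hopx passed (1.86, adjusted p = 0.00175). The marker gate brought Fcer1g to 2.24 and Hopx to 0.73 (adjusted p = 0.3 and 1), and DESeq2 called none of the 4 (adjusted p from 0.115 to 0.24).

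Against the mean of the other classes, S100a6 (2.56) and Mamdc2 (2.7) stood out in interstitial macrophage-like cells and Cxcl2 (1.64) in fibroblast-like cells. Mamdc2 had 46.1, 31.6 and 32.2 CPM in LAIR1KO interstitial macrophage-like cells, against 10.7, 11.5 and 10.1 CPM in WT ones, and at cluster resolution 0.5 it stood at 0.45 within the class (adjusted p = 0.765). Cxcl2 in alveolar type 2-like cells had 129, 255 and 72.9 CPM in LAIR1KO animals, against 373, 198 and 304 CPM in WT animals, and the groups overlapped.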

How the results depend on the processing

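Numbers of genes past the test are given per class where they moved by over 1.5 times from the values in the report, and differences are log2. DESeq2 called 10 in B cell-like, 3 in T cell-like, 2 in endothelial-like, 1 in fibroblast-like and 5 in neutrophil-like cells and 0 between stromal and epithelial classes. With no filter on low counts the numbers were 56 in B cell-like, 62 in the Mmp12-led cluster, 17 in T cell-like, 97 in alveolar macrophage-like, 56 in alveolar type 2-like, 31 in dendritic-like, 22 in endothelial-like, 60 in fibroblast-like, 130 in interstitial macrophage-like, 23 in natural killer cell-like, 28 in neutrophil-like and 32 in non-classical monocyte-like cells, with 18 between myeloid and stromal, 78 between myeloid and epithelial and 23 between stromal and epithelial classes. Another hashtag rule gave 0 in B cell-like cells, 11 in the Mmp12-led cluster, 1 in alveolar type 2-like, 3 in dendritic-like, 3 in fibroblast-like and 7 in neutrophil-like cells, 2 for both epithelial pairs and 2 for the mean over classes, and reversed S100a8 in B cell-like (-0.91) and Csf2 in fibroblast-like cells (0.34). With doublets removed there was 1 in the Mmp12-led cluster, 3 in alveolar macrophage-like, 2 in alveolar type 2-like and 5 in natural killer cell-like cells, 6 between myeloid and epithelial and 1 between stromal and epithelial classes. Ccl4 was then reversed in alveolar type 2-like cells (0.34) and between stromal and epithelial classes (-0.58). Resolution 0.5 gave 0 in B cell-like and endothelial-like cells. The marker gate gave 0 in B cell-like, 4 in alveolar macrophage-like, 1 in alveolar type 2-like, 2 in fibroblast-like, 18 in interstitial macrophage-like and 48 in neutrophil-like cells, 8 between myeloid and epithelial and 1 between stromal and epithelial classes, and 3 for the mean. It reversed Ccl2 (0.49) and Hopx (0.02) in alveolar type 2-like cells and the share of interstitial macrophage-like cells (-0.01). All 12 replicates in the fit gave 1 in B cell-like, 0 in endothelial-like and 15 in interstitial macrophage-like cells, 1 between myeloid and stromal classes and 7 for the mean. With at least 5 cells, chosen after seeing the data, there were 7 between myeloid and epithelial and 3 between stromal and epithelial classes. The causes were not tested.

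Same-numbered animals deviated together by r = 0.0199, 0.0102 and -0.0523 across genes, and LAIR1KO replicate 1 was closest to WT replicate 3 (0.0474). With 3 animals a group, these values cannot tell whether same-numbered animals were handled together. A replicate block gave 22 in B cell-like cells, 41 in the Mmp12-led cluster, 2 in T cell-like, 0 in alveolar macrophage-like, 14 in dendritic-like, 2 in endothelial-like, 4 in fibroblast-like, 49 in interstitial macrophage-like and 27 in neutrophil-like cells, 4 for the mean and 1 for shares. The joint fit already holds the animal, so no separate block was run on it.

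With 1 replicate left out, the numbers ranged from 0 to 36 in B cell-like cells, 1 to 66 in the Mmp12-led cluster, 0 to 34 in T cell-like, 0 to 10 in alveolar macrophage-like, 1 to 23 in alveolar type 2-like, 0 to 8 in dendritic-like, 1 to 5 in endothelial-like, 0 to 5 in fibroblast-like, 0 to 40 in natural killer cell-like, 2 to 9 in neutrophil-like, 0 to 43 in non-classical monocyte-like and 22 to 41 in interstitial macrophage-like cells. They were 0 to 2 between myeloid and stromal, 8 to 48 between myeloid and epithelial and 0 to 23 between stromal and epithelial classes, 1 to 6 for the mean and 0 to 1 for shares. The share difference ranged from -0.05 to 0.32 for interstitial macrophage-like and -0.05 to 0.54 for neutrophil-like cells. Where this left 1 animal in an arm, that animal was assumed to vary like the other arm. Of values for named genes past the test, 382 kept direction and threshold under the other alternatives, 125 missed the threshold and 5 reversed. With a replicate left out, 274 kept both and 140 missed the threshold. Classes with too few cells or genes too sparse under an alternative gave no value there. Counting depth limits Lair1 and other sparse genes in small classes.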
